A study of Homo sapiens with 14 samples.

Results

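JQ1, a small molecule that displaces the BET proteins from acetylated histones, and siRNA against the BET genes were compared gene by gene in MDA-MB-231, an established human breast cancer cell line. The measure was the effect of JQ1 (JQ1 minus its solvent DMSO) minus the effect of BRD siRNA (the mean of mix A and mix B minus control siRNA), both on the log2(value + 1) scale. It rests on 10 of the 14 RNA-seq libraries of the series, in 5 groups of 2: DMSO, JQ1 (1 µM, 24 h), control siRNA, BRD siRNA mix A and BRD siRNA mix B (both 72 h). The mixes target the BET genes, BRD2 and BRD3 among them. A positive difference means that a gene stood higher after JQ1 than after BRD siRNA, each relative to its own control, and every gene called below passed limma at an adjusted p under 0.05 over all 13674 genes tested.

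BET proteins carry a pair of bromodomains that bind acetylated lysines on histones, and through them bring elongation factors and co-activators to enhancers and promoters. A bromodomain inhibitor leaves the proteins in the cell but off chromatin, whereas an siRNA lowers the amount of the proteins, over days rather than hours. Protein was not measured here. BET inhibition is best known in cancer cells for lowering cell cycle and growth genes and for raising HEXIM1, a brake on the elongation kinase P-TEFb.

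The arms differ in more than the way the BET proteins were hit. JQ1 cells were taken at 24 h and siRNA cells at 72 h, and the siRNA arm alone was transfected, so target, time and transfection cannot be told apart. The labels give no harvest time for DMSO or control siRNA. Nothing in them says whether the 2 libraries of a group were grown apart. The p-values thus reflect library-to-library spread, which may be technical, and not the spread between mixes. In bulk RNA, fewer cells of a state and less RNA per cell cannot be told apart. Depth ran from 15741695 to 37311326 gene reads (median 28133728), lowest for control siRNA. Levels are scaled RPM, that is, RPM computed on a normalized library total. All 8 marker genes of MDA-MB-231 on the list used (VIM, CD44, AXL and others) were present, with a summed level of 8074 to 13129 per library, highest after JQ1 (13024 to 13129). Singly they did not move together: 5 rose and 3 fell after JQ1, CD44 among the latter (-0.80), and 5 rose and 2 fell after BRD siRNA.

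Both treatments moved a large share of the transcriptome, and mostly the same way. JQ1 raised 5136 genes (37.6% of those tested) and lowered 4968 (36.3%), and BRD siRNA raised 5143 (37.6%) and lowered 5136 (37.6%). Up in both were 3308 genes (24.2%) and down in both 3293 (24.1%). The effects share no library, and across the 13674 genes they had a Pearson r of 0.630 and a Spearman rho of 0.595, a description over genes that are not independent replicates. The size of the change nevertheless differed for most genes: the difference of effects was higher in 4125 genes (30.2%) and lower in 4093 (29.9%), and it reached 2-fold in 960 higher and 588 lower genes. For 4594 genes the 95% interval of the difference lay within 0.5 of 0 on the log2 scale. List counts of the difference below are to be read against the 30.2% higher and 29.9% lower over all genes tested. List counts within 1 arm are to be read against the shares of that arm given above.

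Genes that moved in opposite directions were a minority. They comprised 770 genes up after JQ1 and down after BRD siRNA (5.63%) and 732 down after JQ1 and up after BRD siRNA (5.35%), with at least a 2-fold change both ways in 13 and 7 of them. Of the 8218 genes with a called difference, 5829 were called the same way against each mix alone. Both single-mix values use the same JQ1, DMSO and control siRNA libraries and average to the main difference, so this agreement is partly built in. Over all genes tested, 288 were called opposite ways with mix A and mix B. A direct comparison of the JQ1 with the BRD siRNA libraries, without any control, called 6268 of the 8218 the same way and gave the other sign for 1058. Over all 13674 genes tested, the direct comparison called 5015 higher and 4765 lower. Direct list counts below are to be read against these, not against the shares for the difference of effects. Where this direct value differs from the difference of effects by over 1.5 times it is given beside the gene, because control siRNA and DMSO libraries themselves differed, with an SD across genes of 0.430 on the log2 scale against 0.657 for the difference.

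**Figure D1:**
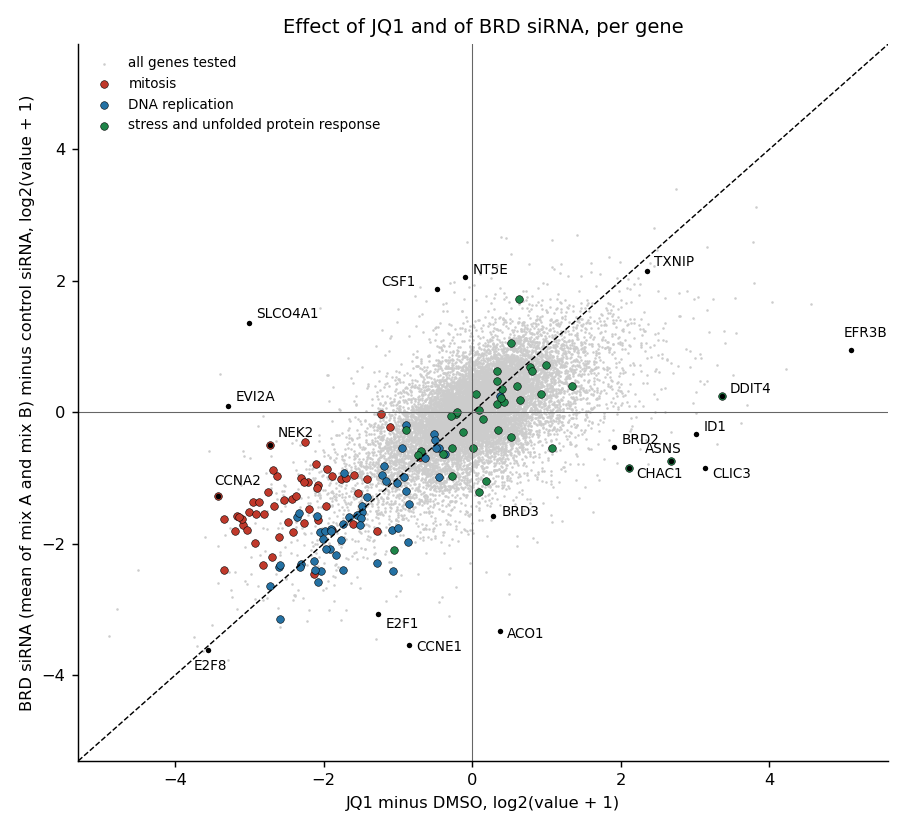
Effect of JQ1 (horizontal axis) and of BRD siRNA (vertical axis) on the log2(value + 1) scale for the 13674 genes tested, with 3 gene lists in colour, selected genes in black and the line of equal effects dashed. Most mitosis genes lie above the line, farther down after JQ1, and DNA replication genes lie along it. ASNS, CHAC1 and CLIC3 rise after JQ1 and fall after BRD siRNA, CLIC3 with a called change for mix B only.

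The BET transcripts BRD2 and BRD3 went opposite ways. BRD2 was at 241 and 257 in DMSO, 919 and 955 after JQ1, 251 and 252 with control siRNA, 204 and 175 with mix A and 166 and 154 with mix B. In the 2 JQ1 libraries BRD2 lay above every other library, and in the 4 BRD siRNA libraries below every other (1.91 after JQ1, -0.53 after BRD siRNA; difference 2.44, SE 0.085, limma adjusted p = 7.45e-15). The levels of BRD3 were 27.98 and 29.0 in DMSO, 35.2 and 34.4 after JQ1, 32.5 and 29.7 with control siRNA, 10.6 and 9.05 with mix A and 10.1 and 9.25 with mix B. BRD3 fell to about the same level with each mix (-1.58) and rose slightly after JQ1 (0.28; difference 1.86, SE 0.114, limma adjusted p = 2.92e-11). Part of each transcript remained after BRD siRNA: the mean over both mixes was 175 for BRD2 and 9.76 for BRD3, against 252 and 31.1 with control siRNA. Why BRD2 rose after JQ1 was not tested.

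Mitosis genes had the median farthest from 0 among the lists of 10 or more genes. All 53 fell after JQ1 (median -2.41) and 52 fell after BRD siRNA (median -1.37), and in 48 the fall after JQ1 was the larger. The median difference was -1.11, against 0.0044 over all genes tested, of which 29.9% were lower. Genes of DNA replication fell to a like extent. Of 54, 53 fell after JQ1 (median -1.53) and 52 after BRD siRNA (median -1.66), and the difference was higher in 14 and lower in 9 (median 0.05). That balance depended on the mix and the controls: 23 were higher against mix A alone, 20 were lower against mix B alone, and directly 38 were higher and 5 lower (median 0.34). In the mitosis list 46 to 49 genes were lower in every alternative fit. The promoters of the 2 lists hold different short elements, shown here because they make the lists recognisable in sequence. The CHR element (cell cycle genes homology region, TTTGAA or TTCGAA on either strand) is known from promoters of genes expressed in G2 and mitosis, and the E2F site (here TTTNNCGC on either strand) from promoters of genes expressed at the start of S phase; TTCGAA reads alike on both strands, and CHR and E2F matches can share letters. In RefSeq windows of GRCh38.p14, from 250 bases before to 50 after the start, a CHR match stood in 28 of the 44 mitosis promoters found (63.6%), in 3 of 47 replication promoters (6.38%) and in 11.2% of the 9921 promoters of tested genes. An E2F match stood in 4 of 44 mitosis promoters (9.09%), in 22 of 47 replication promoters (46.8%) and in 10.5% of the promoters of tested genes. A match is a description of letters, not a bound site. The 30-base stretches below, 5′ to 3′ on the gene's strand with the CHR or E2F matches in capitals, come from 4 mitosis genes, then E2F1 and 3 replication genes, and were picked after their values were seen.
CDCA8: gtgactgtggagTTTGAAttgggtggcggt
CENPA: ggcggagcgagcgaTTTGAAcgcgagcggc
PLK1: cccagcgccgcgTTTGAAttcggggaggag
CDC20: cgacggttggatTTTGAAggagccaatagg
E2F1: ttcGCGGCAAAaaggaTTTGGCGCGTAAAA
CDT1: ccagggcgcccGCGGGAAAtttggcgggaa
PCNA: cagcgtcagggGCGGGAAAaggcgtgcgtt
LIG1: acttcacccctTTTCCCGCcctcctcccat
They lie at chr1:37692481-37692510 (CDCA8, plus strand), chr2:26786024-26786053 (CENPA, plus strand), chr16:23678848-23678877 (PLK1, plus strand), chr1:43358904-43358933 (CDC20, plus strand), chr20:33686392-33686421 (E2F1, minus strand), chr16:88803743-88803772 (CDT1, plus strand), chr20:5126663-5126692 (PCNA, minus strand) and chr19:48170440-48170469 (LIG1, minus strand). The E2F1 stretch holds 3 matches, of which 2 share letters.

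The genes that carry these elements moved as follows. CDCA8 stood at 186 and 191 in DMSO, 16.6 and 18.8 after JQ1, 133 and 134 with control siRNA, 41.3 and 48.6 with mix A and 38.1 and 43.8 with mix B. This subunit of the chromosomal passenger complex was lowest in the JQ1 libraries, and the BRD siRNA libraries lay between them and the controls (difference -1.73, SE 0.116, limma adjusted p = 1.01e-10). CENPA, the histone of the centromere, differed by -1.58 and the mitotic kinase PLK1 by -1.38 (limma adjusted p = 1.57e-08 and 3.56e-09). CDC20, an activator of the anaphase-promoting complex, differed by -1.15, but by -0.41 in the direct comparison. Of the replication genes, PCNA, the sliding clamp of DNA polymerase, changed alike (-0.92 after JQ1, -0.98 after BRD siRNA; difference 0.064, 95% interval -0.11 to 0.24), and directly 0.42. LIG1, which joins Okazaki fragments, fell further after BRD siRNA (0.77), by 1.25 against mix A and 0.29 against mix B. The licensing factor CDT1 had a difference of 0.38 (limma adjusted p = 0.0454) that was 0.0082 against mix B and was not called without mix A replicate 2, mix B replicate 1, control siRNA replicate 2, DMSO replicate 1 or JQ1 replicate 1 (adjusted p = 0.0724 to 0.17).

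Among the mitosis genes, cyclin A2 and NEK2 had the largest absolute limma statistics for the difference (difference over its SE). Scaled RPM of CCNA2 was 252 and 232 in DMSO, 21.2 and 22.2 after JQ1, 197 and 185 with control siRNA, 68.0 and 81.6 with mix A and 77.1 and 89.4 with mix B. Cyclin A2, the cyclin of S phase and mitotic entry, thus fell to its lowest in both JQ1 libraries, with no overlap of groups (difference -2.15, SE 0.117, limma adjusted p = 4.94e-12). For NEK2 the libraries gave 106 and 103 in DMSO, 14.04 and 15.9 after JQ1, 89.5 and 75.5 with control siRNA, 56.9 and 65.5 with mix A and 50.9 and 60.3 with mix B. NEK2, a centrosome kinase, kept most of its level after BRD siRNA (-0.49) and little after JQ1 (-2.72; difference -2.23, SE 0.125, limma adjusted p = 7.92e-12). KIF20A, a kinesin of cytokinesis (-1.80), and AURKB, the kinase of the passenger complex (-1.60), followed, both with limma adjusted p at or under 1.97e-11. BUB3 of the spindle checkpoint fell after JQ1 (-1.22) while the mixes moved it opposite ways (-0.25 with mix A, 0.20 with mix B; mean -0.026; direct -0.56). Only 2 of the 53 had a higher difference, the centromere protein CENPM (0.52; 0.28 against mix B, adjusted p = 0.106; direct 0.79) and the cytokinesis scaffold ANLN (0.32, 0.64 after quantile normalization).

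Cyclin E1 and E2F1, which act at the start of S phase, fell further after BRD siRNA. CCNE1 was at 13.2 and 11.9 in DMSO, 6.14 and 6.81 after JQ1, 20.1 and 22.4 with control siRNA, 1.23 and 1.27 with mix A and 0.680 and 0.597 with mix B. Cyclin E1 drives the G1 to S transition, and in all 4 BRD siRNA libraries it was near the filter limit of 1 while the JQ1 libraries lay between these and DMSO (difference 2.68, SE 0.156, limma adjusted p = 1.32e-11; 1.70 with a pseudocount of 4). The levels of E2F1 were 106 and 108 in DMSO, 46.4 and 41.5 after JQ1, 82.8 and 90.0 with control siRNA, 6.92 and 7.70 with mix A and 11.1 and 12.8 with mix B. E2F1, the transcription factor of S phase genes, was likewise lowest in the BRD siRNA libraries (difference 1.81, SE 0.114, limma adjusted p = 4.15e-11). The origin-firing kinase CDC7 (1.098), the checkpoint adaptor CLSPN (1.02) and the chromatin assembly subunit CHAF1B (1.35) led the 14 replication genes that were higher. FEN1, the flap endonuclease, was among the 9 that were lower (-0.76). Cyclin D3, CCND3, rose after JQ1 (0.37) and fell after BRD siRNA (-0.86; difference 1.23), and E2F4, a repressor of the family, did the reverse (-0.92, direct -0.39). Over the 23 genes of the G1/S list, 11 were higher and 7 lower (median 0.22; 30.2% and 29.9% over all genes tested). Against mix B alone 7 were higher, and directly 11 were lower.

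Histone genes of the clusters, needed in S phase, fell strongly in both arms. All 39 tested fell after each treatment, both with a median of -2.43, and the difference was higher in 8 and lower in 15 (median -0.17; 30.2% and 29.9% over all genes tested), with 20 lower against mix B alone. Directly 19 were higher and 9 lower (median 0.19), 9 were lower with mix A alone or after quantile normalization, and 5 were higher without control siRNA replicate 1, DMSO replicate 2 or JQ1 replicate 1. HIST1H2BE stood at 97.4 and 95.02 in DMSO, 7.42 and 6.43 after JQ1, 77.9 and 67.2 with control siRNA, 4.03 and 4.67 with mix A and 5.03 and 6.22 with mix B. Both JQ1 libraries lay above all 4 BRD siRNA libraries, as DMSO lay above control siRNA, and the difference was 0.0071 (95% interval -0.32 to 0.34; direct 0.41). HIST1H2AH (-0.17, direct 0.29) and HIST1H3B (-0.083, direct 0.36) had no called difference either. HIST1H2BM fell further after JQ1 (-1.49; -0.91 with a pseudocount of 4). These genes are near-identical copies, and the sources used here do not give how shared reads were counted. E2F8, a repressor of E2F targets, also fell in both arms (-3.55 and -3.62; difference 0.071, interval -0.25 to 0.39, direct 0.32).

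**Figure D2:**
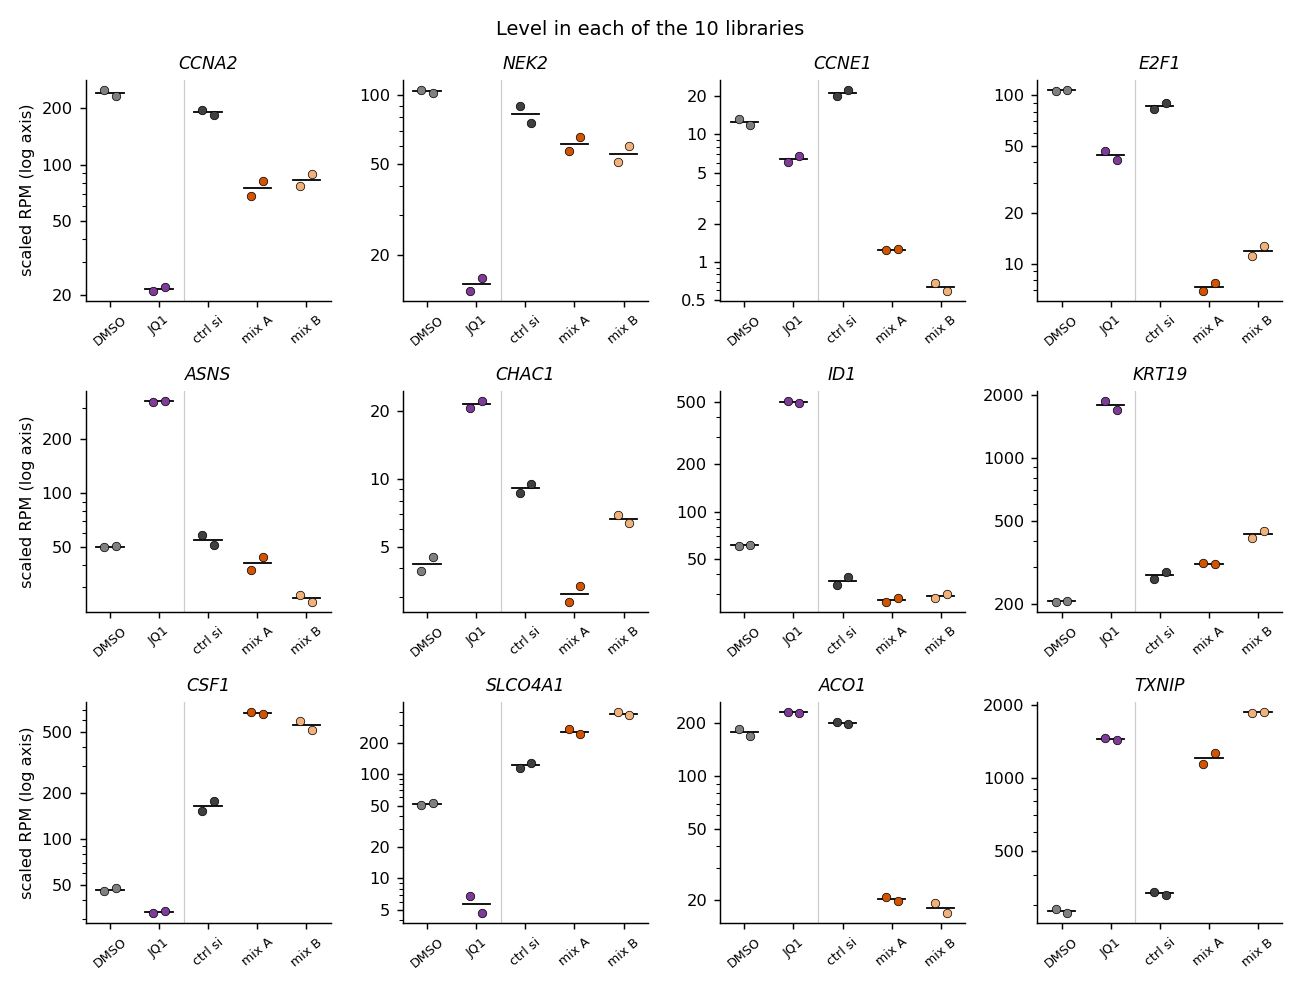
Scaled RPM on a log axis in each of the 10 libraries for 12 genes, with points for libraries and bars for group means; the line parts the JQ1 arm from the siRNA arm (ctrl si, control siRNA). CCNA2 and NEK2 are lowest after JQ1, CCNE1, E2F1 and ACO1 after BRD siRNA, and TXNIP rises in both arms.

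Several amino acid stress genes went up after JQ1 and down after BRD siRNA. ATF4, the transcription factor of the integrated stress response, drives genes of amino acid synthesis and import. Of 38 genes on the list for integrated stress and protein folding stress, 19 had a higher difference and 7 a lower one (median 0.23, against 0.0044 over all genes tested, with 30.2% of them higher and 29.9% lower), and 4 were lower without DMSO replicate 1 or with upper-quartile scaling. In 6 the effects were opposite, each with JQ1 up: ASNS, CHAC1, SLC7A5, SLC3A2, PSAT1 and ATF4. None of the 38 was opposite the other way (5.63% and 5.35% over all genes tested). With mix B alone, SLC7A5 (-0.064, adjusted p = 0.366) and SLC3A2 (0.048, adjusted p = 0.473) had no called change, so their opposite direction rests on mix A. Scaled RPM of ASNS was 50.2 and 50.6 in DMSO, 324 and 328 after JQ1, 58.2 and 51.4 with control siRNA, 37.3 and 44.0 with mix A and 26.98 and 24.8 with mix B. Asparagine synthetase was thus over 5 times higher in each JQ1 library than in any other, and lower with both mixes than with control siRNA (difference 3.41, SE 0.116, limma adjusted p = 5.53e-15). For CHAC1 the libraries gave 3.89 and 4.47 in DMSO, 20.54 and 22.1 after JQ1, 8.63 and 9.51 with control siRNA, 2.84 and 3.33 with mix A and 6.87 and 6.35 with mix B. CHAC1, which degrades glutathione, was also highest in the JQ1 libraries (difference 2.96, SE 0.185, limma adjusted p = 3.52e-11; direct 2.00). It fell more with mix A (-1.30) than with mix B (-0.40), and both the control siRNA and the mix B libraries stood above DMSO.

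SLC7A5 was at 410.0 and 418 in DMSO, 862 and 885 after JQ1, 390.1 and 418 with control siRNA, 196 and 198 with mix A and 369 and 405 with mix B. The large neutral amino acid transporter, whose partner is SLC3A2 (difference 0.89), fell mainly with mix A (2.11 against mix A, 1.14 against mix B; difference 1.62, SE 0.0816, limma adjusted p = 1.53e-12). SLC3A2 likewise differed by 1.31 against mix A and 0.47 against mix B. SLC1A4, an alanine and serine transporter outside the list, was among the 13 opposite genes with 2-fold changes (1.14 and -1.28; difference 2.42, SE 0.158, limma adjusted p = 6.9e-11). PSAT1 and PHGDH of serine synthesis differed through the siRNA arm (1.22 and 1.31): PHGDH had no called JQ1 effect (0.092, limma adjusted p = 0.42) and fell by 1.22 after BRD siRNA. PSAT1 differed by 0.76 against mix A alone. ATF4 itself changed by less (0.35 and -0.27; difference 0.63).

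Not every stress gene followed. The levels of DDIT4 were 20.2 and 25.8 in DMSO, 245 and 242 after JQ1, 87.0 and 94.0 with control siRNA, 106 and 116 with mix A and 101 and 107 with mix B. DDIT4, an inhibitor of mTORC1, rose after JQ1 (3.36) far more than after BRD siRNA (0.24; difference 3.12, SE 0.105, limma adjusted p = 4.54e-15), but control siRNA libraries already stood above DMSO, and the direct value was 1.18. TRIB3, an ATF4 target, fell in both arms (-1.06 and -2.09; difference 1.03, 0.55 against mix B). EDEM1, of the degradation of misfolded proteins, rose more after BRD siRNA (-1.100, direct -0.67). The C/EBP-ATF response element, TGATGNAA on either strand, which ATF4 binds, was looked for in the promoter windows described above. It stood in 4 of the 35 list promoters found (11.4%), so most of them lacked it, and in 1.67% of the promoters of tested genes. The CCAAT box (CCAAT on either strand) stood in 71.4% of the list promoters, 70.5% of the mitosis promoters and 36.7% of the promoters of tested genes. The response element stood in 3 of the 6 opposite genes' promoters (50%; ASNS, CHAC1 and SLC3A2), and these 6 were picked by their effects in these data. The matches of ASNS and CHAC1, in capitals, are shown within 30 bases, 5′ to 3′ on the gene's strand, since these genes led the opposite ones.
ASNS: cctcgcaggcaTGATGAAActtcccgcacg
CHAC1: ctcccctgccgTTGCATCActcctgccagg
They lie at chr7:97872458-97872487 (ASNS, minus strand) and chr15:40953251-40953280 (CHAC1, plus strand).

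Keratins of simple epithelia rose mainly after JQ1, and the genes ID1 and ID3 rose after JQ1 and fell after BRD siRNA. KRT19 stood at 204 and 207 in DMSO, 1877 and 1696 after JQ1, 264 and 282 with control siRNA, 313 and 309 with mix A and 414 and 448 with mix B. KRT19, a keratin of simple epithelia, rose by 3.11 after JQ1 and by 0.42 after BRD siRNA, with no overlap of the JQ1 libraries with others (difference 2.69, SE 0.0834, limma adjusted p = 1.41e-15). Its relatives KRT8 (2.02 and 0.14; difference 1.88) and KRT18 (1.41 and -0.016; difference 1.42) also rose after JQ1, KRT18 with no called effect of either mix and KRT8 with one of mix B only (0.35). AGR2, a secretory disulfide isomerase, was opposite (1.51 and -1.14; difference 2.65), but control siRNA libraries stood above the JQ1 ones and the direct value was 0.26. Of the 15 luminal epithelial markers tested of 18 written, 8 were higher and 1 lower (median 0.26; 30.2% and 29.9% over all genes tested). After JQ1, 7 of these markers rose and 3 fell (median 0.14; 37.6% and 36.3% over all genes tested). Their summed level was 5540.5 to 6018 after JQ1 and 1525 to 1526 in DMSO, most of it from KRT8 (2265 and 2025 after JQ1), KRT18 (1687 and 1633) and KRT19. MDA-MB-231 is a basal-like, mesenchymal line, and whether other cells took part in this rise was not tested.

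ID1 and ID3 encode inhibitors of basic helix-loop-helix factors and are targets of BMP signalling. Scaled RPM of ID1 was 60.6 and 61.5 in DMSO, 506 and 491 after JQ1, 34.2 and 38.3 with control siRNA, 26.7 and 28.4 with mix A and 28.4 and 30.1 with mix B. Both JQ1 libraries stood far above all others, and all BRD siRNA libraries below control siRNA (difference 3.35, SE 0.0894, limma adjusted p = 2.42e-16; direct 4.09). For ID3 the libraries gave 30.9 and 31.9 in DMSO, 70.2 and 64.6 after JQ1, 19.5 and 24.2 with control siRNA, 4.31 and 4.45 with mix A and 7.89 and 9.21 with mix B. ID3 thus changed by at least 2-fold both ways (1.08 and -1.66; difference 2.74, SE 0.135, limma adjusted p = 1.16e-12). CGNL1 of epithelial junctions (2.75, direct 1.24), the phosphatase PPM1E (2.87) and the membrane scaffold MPP1 (2.22) also passed 2-fold both ways. CGNL1 and PPM1E are of low level, and a pseudocount of 4 took them to 1.60 and 1.79.

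Genes of matrix, adhesion and plasminogen activation leaned the other way. Of 46 genes of extracellular matrix and adhesion, 17 rose and 24 fell after JQ1 (median -0.20; 37.6% and 36.3% over all genes tested). After BRD siRNA 28 rose and 15 fell (median 0.33; 37.6% each way over all genes tested). The rises after JQ1 and the falls after BRD siRNA were thus near these shares. The difference was lower in 29 and higher in 10 (median -0.45, against 0.0044 over all genes tested, of which 29.9% were lower). In 13 genes JQ1 lowered what BRD siRNA raised, and in 3 the reverse, where 5.35% and 5.63% of all genes tested were opposite in these ways. LAMA4 was at 17.6 and 18.7 in DMSO, 7.82 and 7.198 after JQ1, 19.1 and 19.3 with control siRNA, 26.2 and 26.7 with mix A and 49.2 and 48.8 with mix B. Laminin alpha 4 was below its control in both JQ1 libraries and above it in all 4 BRD siRNA libraries (difference -2.04, SE 0.0967, limma adjusted p = 6.16e-13).

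Other members showed how the mixes and controls enter. The levels of MMP14 were 309 and 328 in DMSO, 215 and 211 after JQ1, 408 and 449.8 with control siRNA, 1244 and 1196 with mix A and 507 and 503 with mix B. MMP14, a membrane-bound collagenase, rose most with mix A (-2.09 against mix A, -0.82 against mix B; difference -1.45, SE 0.0771, limma adjusted p = 3.24e-12). ITGA2, an integrin that binds collagen, rose slightly after JQ1 (0.18) and strongly after BRD siRNA (1.77; difference -1.59). The hyaluronan receptor CD44 (-1.48, direct -0.29) and COL8A1 (-1.46, direct -0.43) were opposite, with control siRNA well below DMSO, and COL8A1 had no called change with mix B (-0.024, adjusted p = 0.71). Integrin beta 3, ITGB3, led the 10 with a higher difference (1.07 and -1.05; difference 2.11, direct 1.33). COL6A1 was opposite with JQ1 up (1.01; 0.55 against mix A, which itself had no called effect, 0.11), but its direct value was -0.45.

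The plasminogen system turns over matrix at the cell surface. Of its 12 genes, 8 were lower and 3 higher (median -0.57; 29.9% and 30.2% over all genes tested), and 10 rose after BRD siRNA against 4 after JQ1 (37.6% after either over all genes tested). PLAUR stood at 105 and 102 in DMSO, 81.8 and 72.2 after JQ1, 72.6 and 78.9 with control siRNA, 199 and 218 with mix A and 106 and 109.8 with mix B. The urokinase receptor fell after JQ1 (-0.43) and rose after BRD siRNA (0.98; difference -1.40, -0.93 against mix B). Urokinase itself, PLAU, fell in both arms and more after JQ1 (-2.12 and -1.18; difference -0.95, -0.55 after quantile normalization, direct -1.76). S100A10, a cell-surface binding partner of plasminogen, rose after JQ1 (1.79; difference 1.67), with BRD siRNA values of 0.40 for mix A and -0.14 for mix B.

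A transporter, a growth factor and a pair of receptors fell after JQ1 and rose after BRD siRNA. Scaled RPM of SLCO4A1 was 51.0 and 53.5 in DMSO, 6.78 and 4.67 after JQ1, 115 and 129 with control siRNA, 269.8 and 244 with mix A and 396 and 369 with mix B. This organic anion transporter had the most negative difference under the rule for named genes, with JQ1 libraries below DMSO and BRD siRNA libraries above control siRNA (difference -4.36, SE 0.13, limma adjusted p = 7.8e-16). For CSF1 the libraries gave 45.5 and 48.0 in DMSO, 32.9 and 33.7 after JQ1, 152 and 177 with control siRNA, 674 and 655 with mix A and 585 and 517 with mix B. CSF1, a macrophage growth factor, changed in the same directions (difference -2.35, SE 0.0888, limma adjusted p = 2.42e-14; direct -4.14). CXCR4, a chemokine receptor (-1.29 and 1.01; difference -2.31, direct -1.05), and the collagen-binding receptor ANTXR2 (-1.105 and 1.13; difference -2.24) also changed at least 2-fold both ways.

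Of 31 NF-kB genes and inflammatory cytokines, 9 were higher and 9 lower (median -0.10), near the 30.2% and 29.9% over all genes tested. In this list 20 fell after JQ1 and 19 after BRD siRNA (36.3% and 37.6% over all genes tested). Directly 4 were higher and 19 lower. ICAM1, an adhesion molecule for leukocytes, fell after JQ1 (-1.26) and rose after BRD siRNA (0.62; difference -1.88). LIF fell more after JQ1 (-1.34), whereas SOD2, the mitochondrial superoxide dismutase, rose after JQ1 and fell after BRD siRNA (0.43 and -1.06; difference 1.49).

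Among 27 feedback regulators of the MAPK pathway the difference was lower in 16 and higher in 7 (median -0.34; 29.9% and 30.2% over all genes tested; 4 higher against mix A alone). SPRY4, a Sprouty inhibitor, was opposite (-0.93 and 0.45; difference -1.39), SPRY1 fell further after JQ1 (-1.13) and PHLDA1 rose more after BRD siRNA (-0.99). DUSP6, the ERK phosphatase, went against this: 279 and 275 in DMSO, 1666 and 1632 after JQ1, 408 and 407 with control siRNA, 879 and 949 with mix A and 1076 and 1088 with mix B. It rose in both arms and more after JQ1 (difference 1.29, SE 0.0729, limma adjusted p = 8.89e-12; direct 0.73). AP-1 factors pair as dimers on promoters and enhancers. Of 14, 7 were lower and 4 higher (median -0.28; 29.9% and 30.2% over all genes tested). FOSL1 was opposite (-0.80 and 0.88; difference -1.68), while JUND (1.57), ATF3 (1.75) and FOSL2 (1.48, direct 0.66) were higher. FOSL2 differed through its fall after BRD siRNA (-1.43), and ATF3 through its rise after JQ1 (1.82).

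The CDK inhibitor genes CDKN1A and CDKN1C rose in both arms and more after JQ1. CDKN1A was at 24.4 and 24.5 in DMSO, 192 and 182 after JQ1, 46.7 and 55.6 with control siRNA, 62.8 and 65.6 with mix A and 153 and 157 with mix B. The gene of p21 had its highest libraries after JQ1, with mix B next and mix A just above control siRNA (2.56 against mix A, 1.296 against mix B; difference 1.93, SE 0.0882, limma adjusted p = 3.76e-13; direct 0.90). CDKN1C, the gene of p57, rose from a low level (3.07 and 0.48; difference 2.59, direct 1.37), and had no called change with mix A (0.17, adjusted p = 0.283). The list that holds the CDK inhibitors and DNA damage response genes had 28 genes tested. Of these, 13 were higher and 7 lower (median 0.18; 30.2% and 29.9% over all genes tested; 11 lower directly). In this list 9 fell after JQ1 and 8 after BRD siRNA (36.3% and 37.6% over all genes tested). RRM2B, a ribonucleotide reductase subunit (1.57), and the BH3-only gene BBC3 (1.88, direct 1.16) rose after JQ1 with no called mean BRD siRNA effect, although RRM2B fell with mix A (-0.19) and BBC3 with mix B (-0.50). The nuclease gene AEN fell further after JQ1 (-1.42). MCL1, an anti-apoptotic BCL2 relative, rose after BRD siRNA and fell slightly after JQ1 (0.68 and -0.22; difference -0.89, -0.58 against mix A).

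Growth genes fell more from DMSO to JQ1 than from control siRNA to BRD siRNA, but the treated libraries ended near the same level. Of 49 ribosome biogenesis genes, 40 were lower and 2 higher (median -0.65, against 29.9% lower over all genes tested), with 48 down after JQ1 (median -0.99) and 38 after BRD siRNA (median -0.37). Relative to DMSO, however, the list's median was already -0.50 and -0.58 in the control siRNA libraries, and it was -0.98 and -0.99 after JQ1, -0.94 and -0.95 with mix A and -0.95 and -0.90 with mix B. Directly, 14 were higher and 23 lower after JQ1 (median -0.10). The levels of WDR43 were 307 and 289 in DMSO, 94.9 and 97.8 after JQ1, 203 and 178 with control siRNA, 141 and 152 with mix A and 139.6 and 143 with mix B. WDR43, of the small subunit processome, differed by -1.21 (direct -0.57), the assembly factors WDR74 by -1.31 (direct -0.73) and MRTO4 by -1.02 (direct -0.28), and the nucleolar protein NOLC1 by -1.02 (direct -0.54).

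Other housekeeping lists depended on the controls in the same way. Of 45 splicing factors 29 were lower and 3 higher (median -0.34), against 15 lower and 14 higher directly (median 0.01). SNRPD3, a core snRNP protein, had a difference of -0.79 and a direct value of -0.74, while U2AF1 went from -1.04 to -0.17 and SNRPD1 from -0.996 to -0.31. Of 74 cytosolic ribosomal protein genes 25 were lower and 4 higher (median -0.16), but directly 63 were higher and 0 lower (median 0.35). Against mix A alone 14 were higher and 12 lower, and against mix B alone 0 and 49. Single libraries also moved this count: 15 were lower without control siRNA replicate 1, DMSO replicate 1 or JQ1 replicate 2, and 42 without mix A replicate 1. Upper-quartile scaling gave 9 higher and 16 lower, quantile normalization 10 higher, leaving out mix A replicate 2 gave 7 higher, and leaving out DMSO replicate 2 or JQ1 replicate 1 gave 2. RPS16 went from -0.87 to 0.11, and RPL29 from -0.59 to -0.11 (adjusted p = 0.0944). Of 36 proteasome genes 19 were lower and 2 higher (median -0.22; directly 10 lower and 9 higher, median -0.02; 12 lower against mix B alone or after quantile normalization).

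**Figure D3:**
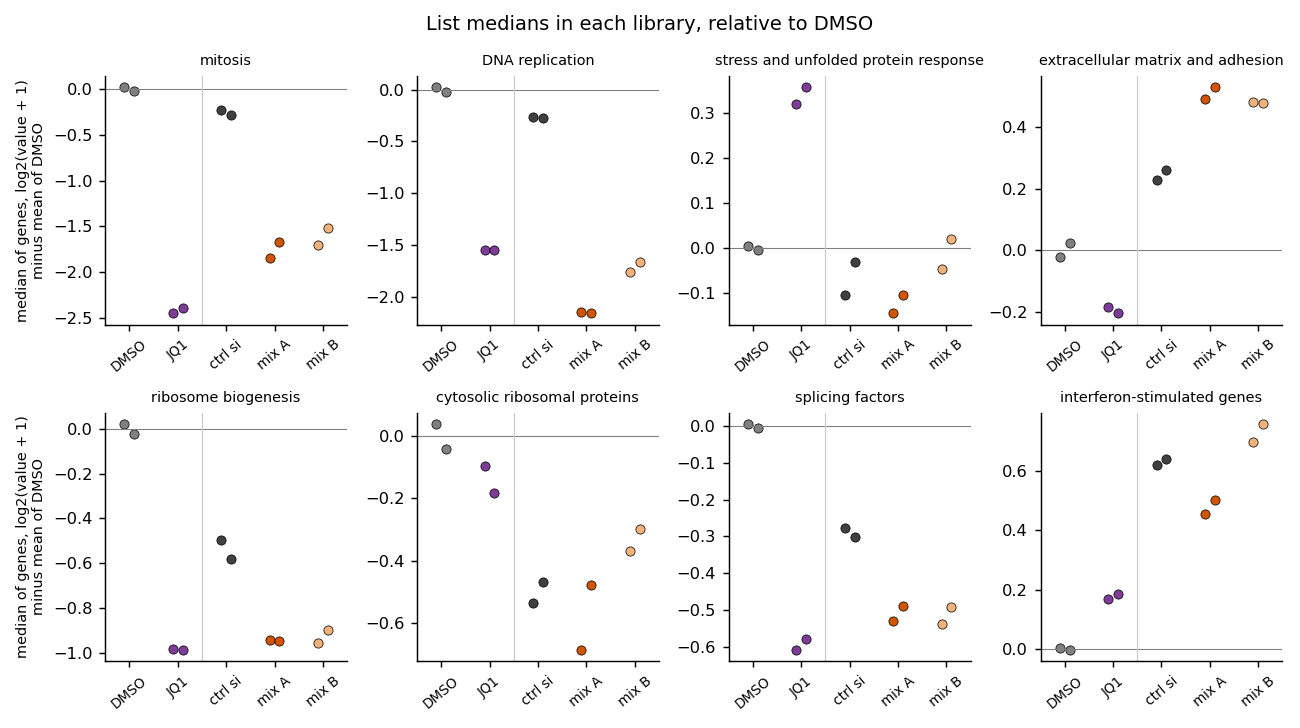
Median over the genes of 8 lists in each of the 10 libraries, as log2(value + 1) minus the DMSO mean of each gene; points are libraries, and vertical scales differ between panels. In mitosis and DNA replication the control siRNA libraries lie close to DMSO relative to the treated ones, whereas for ribosome biogenesis and interferon-stimulated genes they lie away from it, at medians by library of -0.50 and -0.58 and 0.62 and 0.64.

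Interferon-stimulated genes show the same limit with the other sign. Of 52, 25 were higher and 11 lower (median 0.21), but directly 13 were higher and 33 lower (median -0.38), and control siRNA libraries stood above DMSO (median 0.68). SAMD9L, an antiviral gene, rose after JQ1 and fell after BRD siRNA (0.78 and -1.38; difference 2.16, direct 0.45). The DNA sensor IFI16 was lower in both views (-1.45, direct -1.76). OAS3, of the RNase L pathway, fell further after BRD siRNA (1.39; 0.85 against mix B, direct 0.51). The part of the transfection in these values was not tested.

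Of 39 SRF target and actin cytoskeleton genes, 23 fell after BRD siRNA (median -0.20; 37.6% over all genes tested) and 16 after JQ1 (median -0.0038; 36.3%), 13 of them in both arms, and the difference was higher in 17 and lower in 9 (median 0.10; 15 lower against mix A alone). TAGLN2 stood at 321 and 316 in DMSO, 324 and 312 after JQ1, 313 and 311 with control siRNA, 145 and 168 with mix A and 49.7 and 52.4 with mix B. Transgelin 2 was level across DMSO, JQ1 and control siRNA and lower in all 4 BRD siRNA libraries, most with mix B (0.99 against mix A, 2.59 against mix B; difference 1.79, SE 0.082, limma adjusted p = 3.76e-13). MYL9, a myosin light chain (1.45), and VCL, vinculin (0.97, direct 0.44), also fell after BRD siRNA, whereas FLNC, filamin C, differed through its rise after JQ1 (1.52; difference 1.22, direct 2.42).

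Some genes changed strongly after BRD siRNA and little after JQ1. A total of 141 genes fell and 87 rose by at least 2-fold after BRD siRNA while the 95% interval of their JQ1 effect lay within 0.5 of 0. Scaled RPM of ACO1 was 186 and 169.9 in DMSO, 231 and 229 after JQ1, 202 and 198 with control siRNA, 20.7 and 19.7 with mix A and 19.0 and 16.8 with mix B. ACO1, the cytosolic aconitase that also acts as an iron regulatory protein, was about 10 times below its control with each mix but lies outside this count, since it rose slightly after JQ1 (0.37; difference 3.70, SE 0.0827, limma adjusted p = 1.47e-17). For NACC1 the libraries gave 153 and 160.3 in DMSO, 144 and 126 after JQ1, 139 and 152 with control siRNA, 24.2 and 19.3 with mix A and 23.6 and 22.2 with mix B. This transcriptional regulator was lower by the same amount with each mix (2.47 against mix A, 2.40 against mix B; difference 2.44, SE 0.113, limma adjusted p = 4.49e-13). NDUFS3, a subunit of complex I, fell after BRD siRNA (-1.96) and little after JQ1 (-0.19; difference 1.78), although of the 59 genes of oxidative phosphorylation 24 were lower and 7 higher (median -0.20). For that list 14 were lower without DMSO replicate 1, 4 higher without control siRNA replicate 2, 15 lower against mix B alone or with upper-quartile scaling, 13 lower and 12 higher after quantile normalization, and 9 lower and 24 higher directly.

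The motor protein gene MYO5B (2.61, 1.72 with a pseudocount of 4), KATNAL1, a subunit of microtubule severing (2.07, 1.35 against mix B), and the actin-associated SYNPO (2.26, 1.46 with a pseudocount of 4, direct 1.07) completed, with NACC1, the 4 falls of largest size in this count among genes with a group mean of at least 5. NACC1 (-0.22) and KATNAL1 (-0.30) also fell slightly after JQ1. Whether a single siRNA sequence shared by the mixes lowered such genes was not tested, since no siRNA sequence was used here. NT5E was at 544 and 508 in DMSO, 498 and 484 after JQ1, 471 and 451 with control siRNA, 2185 and 2336 with mix A and 1671 and 1608 with mix B. NT5E, which makes adenosine at the cell surface and is a YAP/TAZ target, rose in all 4 BRD siRNA libraries and had no called JQ1 effect (difference -2.16, SE 0.0778, limma adjusted p = 1.18e-14). ANGPTL4, a lipase inhibitor, rose as well (2.10; difference -1.99), and so did CSGALNACT2 of chondroitin sulfate synthesis (1.99; difference -2.23, direct -0.62).

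In the other direction, 270 genes rose and 142 fell by at least 2-fold after JQ1 with the interval of the mean BRD siRNA effect within 0.5 of 0. The levels of AQP3 were 5.09 and 4.20 in DMSO, 76.3 and 68.3 after JQ1, 7.67 and 10.8 with control siRNA, 5.97 and 7.18 with mix A and 14.9 and 14.6 with mix B. The glycerol channel AQP3 rose more than 10-fold, while the mixes moved it opposite ways (-0.42 with mix A, 0.64 with mix B), which average out (difference 3.59, SE 0.154, limma adjusted p = 1.55e-13). EVI2A stood at 77.9 and 69.98 in DMSO, 6.86 and 6.46 after JQ1, 84.4 and 80.6 with control siRNA, 117 and 132 with mix A and 61.8 and 62.1 with mix B. EVI2A, a gene within an intron of NF1, fell to a low level in both JQ1 libraries (difference -3.38, SE 0.0972, limma adjusted p = 4.47e-16), and its small mean BRD siRNA effect also averages opposite changes (0.59 with mix A, -0.41 with mix B). ACSL5, a fatty acid CoA ligase, fell after JQ1 (-2.81; difference -2.75), and here too the mixes were opposite (0.43 with mix A, -0.55 with mix B). EVA1A fell after JQ1 as well (-1.93 and 0.17; difference -2.10, direct -1.14). FAM196B fell after JQ1 (-3.39) and rose after BRD siRNA (0.57; difference -3.97, direct -2.29), with no called change for mix B (0.18, adjusted p = 0.146).

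The largest positive differences under the rule belonged to EFR3B and CLIC3. Scaled RPM of EFR3B was 2.01 and 1.82 in DMSO, 95.8 and 102 after JQ1, 1.23 and 1.32 with control siRNA, 4.31 and 3.33 with mix A and 3.37 and 2.69 with mix B. EFR3B, which anchors a lipid kinase at the plasma membrane, rose in both arms, by 5.10 after JQ1 and 0.95 after BRD siRNA (difference 4.15, SE 0.168, limma adjusted p = 7.43e-14). For CLIC3 the libraries gave 5.28 and 4.45 in DMSO, 52.7 and 48.1 after JQ1, 5.76 and 7.76 with control siRNA, 6.21 and 5.12 with mix A and 1.77 and 1.70 with mix B. CLIC3, a chloride channel family member of recycling endosomes, rose after JQ1 (difference 3.99, SE 0.165, limma adjusted p = 9.89e-14). It fell with mix B (-1.49) and had no called change with mix A (-0.21, limma adjusted p = 0.133). TM7SF2, a sterol reductase, led the 13 of 27 cholesterol synthesis genes that were higher (3.29 and 0.72; difference 2.58, direct 1.33), with 6 lower, or 15 lower directly.

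Of 12 genes listed as raised by BET inhibitors, 7 rose in both arms and 5, all histone genes, fell in both (24.2% and 24.1% over all genes tested). Of 15 genes listed as lowered by BET inhibitors, 12 fell after JQ1 and 10 after BRD siRNA (36.3% and 37.6% over all genes tested). In 8 of these 15 the fall was in both arms (24.1% over all genes tested), and 2 rose after JQ1, ID1 (3.01) among them. TXNIP was at 288 and 278 in DMSO, 1461 and 1424 after JQ1, 339 and 331 with control siRNA, 1136 and 1265 with mix A and 1849 and 1863 with mix B. TXNIP, which restrains thioredoxin and glucose uptake, rose about as much in each arm (2.35 and 2.15). Its difference of 0.20 (limma adjusted p = 0.0332) was 0.51 against mix A and turned to -0.12 against mix B and to -0.048 directly, and was not called without control siRNA replicate 1 or without either library of mix B, of DMSO or of JQ1 (adjusted p = 0.0502 to 0.122). The levels of HEXIM1 were 71.0 and 80.4 in DMSO, 213 and 225 after JQ1, 53.2 and 58.4 with control siRNA, 157 and 171 with mix A and 113 and 114 with mix B. HEXIM1 rose in both arms as well (1.52 and 1.27), with a small gap between them (difference 0.25, SE 0.0871, limma adjusted p = 0.018) that was -0.014 against mix A, 0.51 against mix B and 0.68 directly, and was not called without control siRNA replicate 2, DMSO replicate 1 or JQ1 replicate 2 (adjusted p = 0.0886 to 0.158).

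The metallothionein MT2A (2.45 and 2.23; difference 0.22, limma adjusted p = 0.126), the polyamine enzyme SAT1 (2.22 and 2.05; difference 0.18, limma adjusted p = 0.0653) and VASN (2.40 and 2.27; difference 0.12, limma adjusted p = 0.499) had 95% intervals within 0.5 of 0. MT2A and SAT1 averaged mixes that differ, and the direct values were 0.64, -0.52 and -0.10. In all, 115 genes rose and 210 fell at least 2-fold in both arms with such an interval. Of 31 NRF2 antioxidant and metallothionein genes, 14 were higher and 4 lower (median 0.22; 30.2% and 29.9% over all genes tested; 9 lower against mix B alone). The higher ones included MT1X (1.19; 1.82 against mix A, 0.56 against mix B), TXNRD1 (0.92; 0.60 against mix B) and the reductase AKR1C3 (1.38; 0.75 against mix A, direct 0.43; 0.61 with mix A and -0.66 with mix B). Among 34 elongation factors, 15 were lower and 7 higher (median -0.18; 29.9% and 30.2% over all genes tested; 13 higher directly). The P-TEFb cyclin CCNT2 was opposite (-0.58 and 0.61; difference -1.19), and MLLT3 (1.31) and ELL2 (0.82) of the super elongation complex were higher.

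The series asks about YAP and TAZ. Of 27 of their target genes, 10 were higher and 11 lower (median -0.09; 30.2% and 29.9% over all genes tested; 6 higher against mix B alone). CTGF, the most used readout, was at 415 and 393 in DMSO, 1889 and 2036 after JQ1, 201 and 184 with control siRNA, 292 and 317 with mix A and 879 and 880.1 with mix B. It rose in both arms, and more after JQ1 (difference 0.86, SE 0.0929, limma adjusted p = 1.18e-07), a gap that was 1.62 against mix A and 0.091 against mix B (adjusted p = 0.448; direct 1.92). CYR61 differed by 0.28 (0.79 against mix A, -0.24 against mix B, direct 1.04) and ANKRD1 by 0.40 (0.25 against mix B, 0.25 after quantile normalization, direct 1.52). EDN1, the endothelin gene, and FJX1 fell far more after JQ1 (-2.50 and -2.18), and NT5E rose after BRD siRNA with no called JQ1 effect. MYC, a growth regulator often lowered by BET inhibitors, fell slightly after JQ1 (-0.34), fell with mix A (-0.20) and rose with mix B (0.49). Its difference was -0.48, and it was -0.14 against mix A (adjusted p = 0.163), -0.83 against mix B and 0.16 directly.

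**Figure D4:**
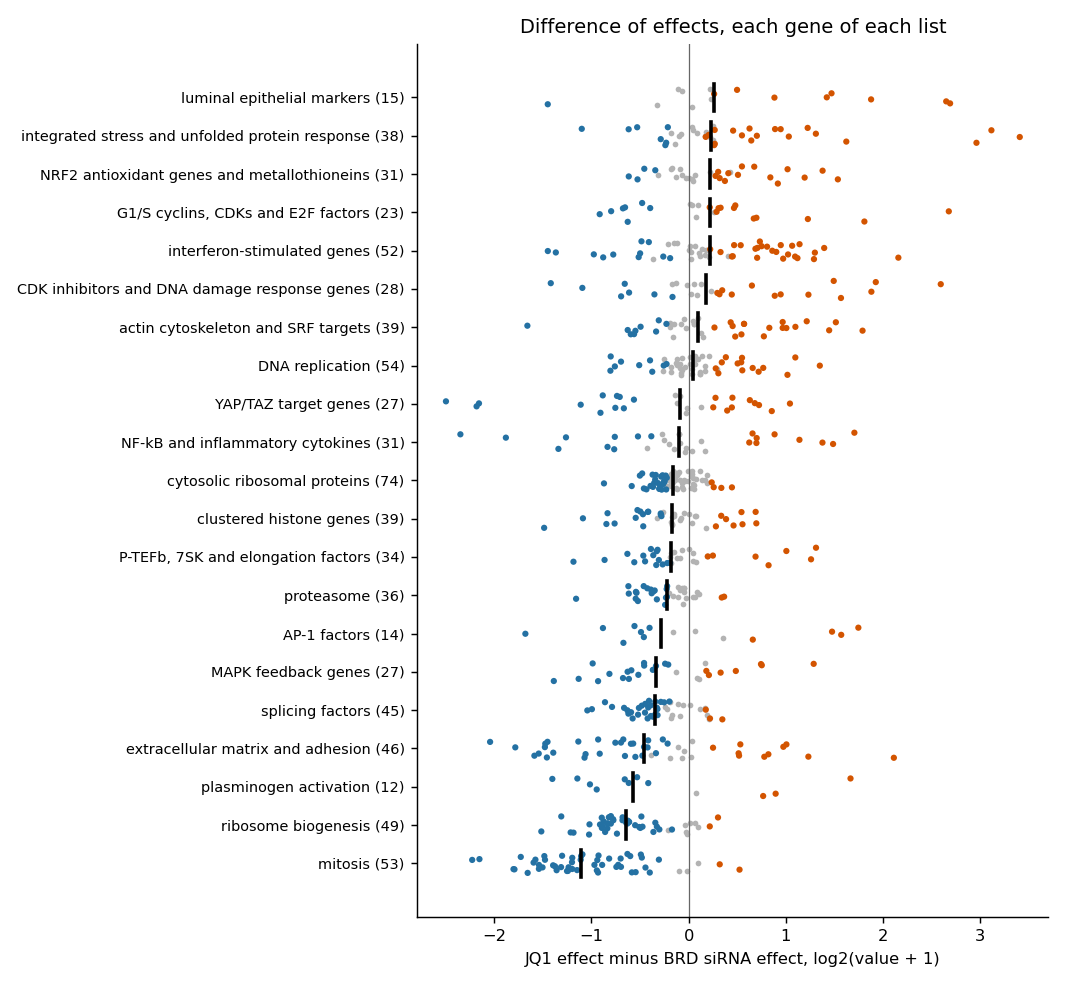
Difference of effects (JQ1 effect minus BRD siRNA effect, log2 scale) for every tested gene of 21 lists, with the number of genes in brackets, medians as black bars, called genes in orange (higher) and blue (lower) and other genes in grey. The mitosis list lies farthest left with a median of -1.11, and single stress genes lie farthest right, up to 3.41 for ASNS.

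Markers of other cell types were few or low. Of 14 leukocyte markers written 6 were in the table and tested, with 3 higher and 1 lower (median 0.39; directly 2 higher and 3 lower) and a summed level of 124.9 to 127 in DMSO and 171 to 186 with control siRNA. Of 13 fibroblast and endothelial markers 4 were tested, with 2 higher and 1 lower, and their sum was 13.6 to 17.9 with control siRNA and 49.98 to 53.2 with mix A. The other 8 leukocyte and 9 fibroblast and endothelial markers were not among the genes with deposited values, under the symbols used, so they were not analysed. The part of other cell types in the results was not tested.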

How the data were processed

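RNA-seq of MDA-MB-231 was analysed. The deposited table gives for 13734 genes a signal that equals whole reads times a step of 0.0276 to 0.0602 per library (100% of values whole at a tolerance of 0.01), with column sums of 947552 to 1098052, so it was read as counts scaled by an effective library size. The build was hg19, and the tools listed, per the submitters' processing notes, were HTSeq 0.6.0, TopHat2 2.0.5, CASAVA 1.8.4, R 3.0.0 and edgeR. Their roles, the annotation and the strand setting are not stated there.

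From these values, log2(value + 1) was fitted with limma 3.58.1 (R 4.3.3, variance trend) over all 14 libraries in 7 groups, for the 13674 genes that reached 1 in 2 or more libraries, with Benjamini-Hochberg adjustment over all of them and calls under 0.05. The test was also run on simulated counts in which few genes changed, and those only in JQ1. These data have many changes in both arms, so that run does not show how reliable the calls are. Alternatives used other pseudocounts, filters, scalings, mixes and libraries, and edgeR 4.0.16 and DESeq2 1.42.0 on the recovered reads.

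The members and gene lists were chosen with earlier results of these data known. Genes were named by fixed anchors, size of the difference, largest opposite, one-sided and alike effects, and up to 4 per list by moderated statistic. Outside that rule, and chosen after their values were seen, were ANLN, ATF3, ATF4, BUB3, CDC20, CDCA8, CDT1, CENPA, CENPM, COL6A1, EDEM1, ITGB3, LIG1, PCNA, PHGDH, PLK1, PSAT1, SLC3A2 and TRIB3. Some genes, a targeted one among them, are not reported here.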

Additional observations from a re-analysis of the deposited data

Results flagged for a closer look

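For 3 genes named for their small difference or as YAP/TAZ readouts, the difference of effects had opposite signs with the 2 BRD siRNA mixes, and the mixes differed by limma's test of mix A against mix B. CYR61, a secreted matrix protein, had a difference of 0.79 with mix A and -0.24 with mix B (mix A minus mix B -1.02, adjusted p = 2.02e-12). MT2A gave 0.76 with mix A and -0.32 with mix B (mix A minus mix B -1.08, adjusted p = 4.28e-09). SAT1 gave 1.11 with mix A and -0.76 with mix B (mix A minus mix B -1.87, adjusted p = 1.17e-15). Their small mean differences are therefore averages of unlike mixes.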

How the results depend on the processing

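The 4125 higher and 4093 lower differences and the 770 and 732 opposite effects stayed within 1.5 times of these counts in all 25 alternative settings, at 3630 to 5015, 3442 to 4765, 638 to 923 and 571 to 856 genes. Leaving out 1 library gave 3666 to 4251, 3620 to 4247, 664 to 812 and 599 to 782; the lone library left in a group is then assumed to vary like the other groups. Upper-quartile scaling called 4706 higher and 3442 lower, 57.8% higher against 50.2%, with the median of all genes at 0.0773. Replicate numbers did not pair the libraries (correlations of -0.373 to 0.218), and with the replicate block the counts were 4126, 4082, 773 and 726, with none of the 130 named genes changing its call. edgeR (4167, 4049, 786 and 736) and DESeq2 (3630, 3950, 638 and 696) also kept all 130.

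Among named genes with a called difference, the sign turned in the direct comparison for COL6A1 (-0.45), RPS16 (0.11), MYC (0.16) and TXNIP (-0.048), with mix B alone for CYR61 (-0.24) and TXNIP (-0.12), and with mix A alone for HEXIM1 (-0.014); the direct comparison leaves out the control libraries by construction, and otherwise the cause was not tested. Replicates of mix A differed most (chi-square per gene 10.6, against 3.51 to 4.94 in the other 4 groups), and the shallow control siRNA libraries limit low genes.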
